A study of Homo sapiens with 2 samples.

Results

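The genes described here are 10 genes of the integrated stress response and of its neighbour, the unfolded protein response: ATF4, ATF3, DDIT3, TRIB3, CHAC1, ASNS, DDIT4, PSAT1, SESN2 and XBP1. They were chosen by name out of 56255 gene symbols, with earlier results of these data known. Each stood on 1 row of the deposited table. RNA was measured in A549 cells overexpressing MYOCD and in wild-type, untreated A549 cells (WT), with 1 library in each group. A549 is a human lung adenocarcinoma line, and the product of MYOCD, myocardin, works with the transcription factor SRF to switch on muscle genes. The labels do not name a vector control or say how MYOCD was delivered, so any effect of the delivery and of MYOCD itself cannot be told apart. With 1 library in each group no value has a replicate error and no test was made.

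The integrated stress response joins several sensors to 1 switch. The kinases encoded by EIF2AK1, EIF2AK2, EIF2AK3 and EIF2AK4 sense haem or mitochondrial trouble, double-stranded RNA, misfolded protein in the endoplasmic reticulum and missing amino acids. Each phosphorylates the translation factor eIF2, which slows protein synthesis in general while the mRNA of ATF4 is translated more. ATF4, a bZIP transcription factor, then drives genes for amino acid supply and for the stress response itself. XBP1 belongs to a parallel arm of the unfolded protein response, in which the sensor IRE1 removes a short stretch from the XBP1 mRNA so that an active transcription factor is made.

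Expression is given in RPKM, reads scaled to gene length and library size, so that levels of different genes can be set side by side. MYOCD itself stood at 48.6 RPKM in the MYOCD library and 0.304 RPKM in the WT library, in the direction of the labels. All 10 epithelial and A549 markers reached 1 RPKM in a library, and ALDH1A1 (2642 RPKM in MYOCD, 2228 in WT), KRT18 (1134 and 1647) and KRT8 (1059 and 1523) were the most abundant. Of these markers CEACAM6 (13.5 RPKM in MYOCD, 1.61 in WT) and EPCAM (2.57 and 0.889) were higher by 2-fold or more. Of 9 fibroblast markers 2 reached 1 RPKM in a library, COL1A1 (14.3 RPKM in MYOCD, 3.05 in WT) and THY1 (0.959 and 1.91). The 9 summed to 16.2 RPKM in MYOCD and 5.75 RPKM in WT, with DCN and FAP listed at 0 in both libraries. Of 8 blood and endothelial markers, CD68 (25.1 RPKM in MYOCD, 18.3 in WT) and CD14 (1.17 and 2.31) reached 1 RPKM, PTPRC, CD3E, VWF and CDH5 were listed at 0 in both libraries, and the sum was 26.5 RPKM in MYOCD and 20.7 RPKM in WT. The part of these differences in the results was not tested.

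The stress response genes stood higher in MYOCD cells or, for ASNS, level with WT cells, and ATF3 alone stood lower. In RNA of a whole culture, more RNA in each cell and more cells with the RNA cannot be told apart. A log2 change was computed as the log2 of MYOCD over WT after 0.5 RPKM had been added to each value, which makes the change of a low gene look smaller than it is. All 10 genes passed a filter of at least 1 RPKM in a library, as did 17350 genes in the whole table. The log2 change was above 0 for 9 of the 10, where 49.8% of all genes and 50.5% of protein-coding genes were above 0. At a size of 1.5-fold or more, 6 of 10 were higher, against 11.6% of all genes and 8.52% of protein-coding genes. At 2-fold or more, 0 were higher (5.42% of all genes, 3.02% of protein-coding genes) and 1, ATF3, was lower (6.35% and 3.1%). Because the 10 genes were chosen with earlier results of these data known, these shares are a description and not independent support. The median log2 change of the 10 was 0.60, while that of all genes past the filter was -0.00. Together they summed to 599 RPKM in MYOCD and 455 RPKM in WT.

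**Figure D1:**
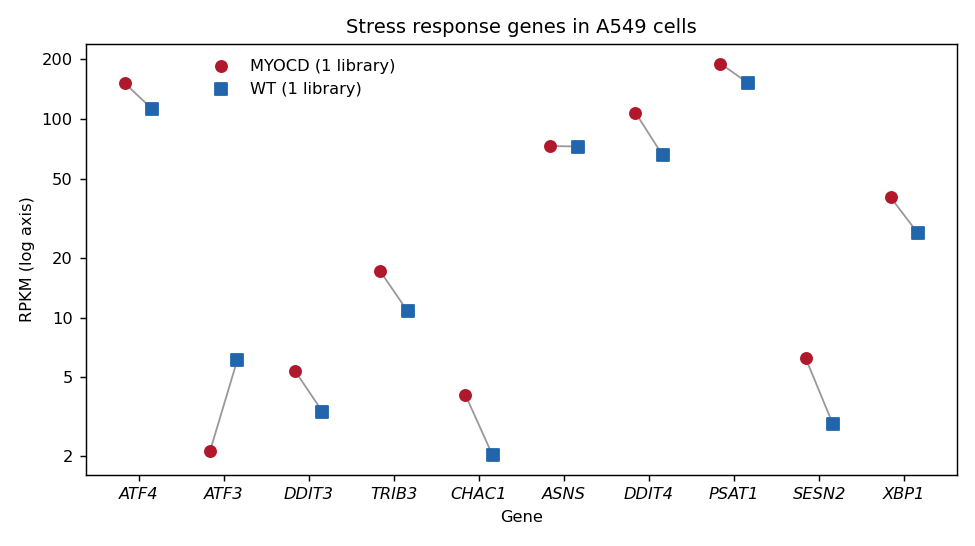
RPKM of each gene on a log axis, with the MYOCD library as a circle and the WT library as a square, 1 library each. The circle lies above the square for every gene but ATF3 (2.14 RPKM in MYOCD, 6.13 in WT), and ASNS is nearly level (73.2 and 72.8 RPKM in MYOCD and WT).

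**Figure D2:**
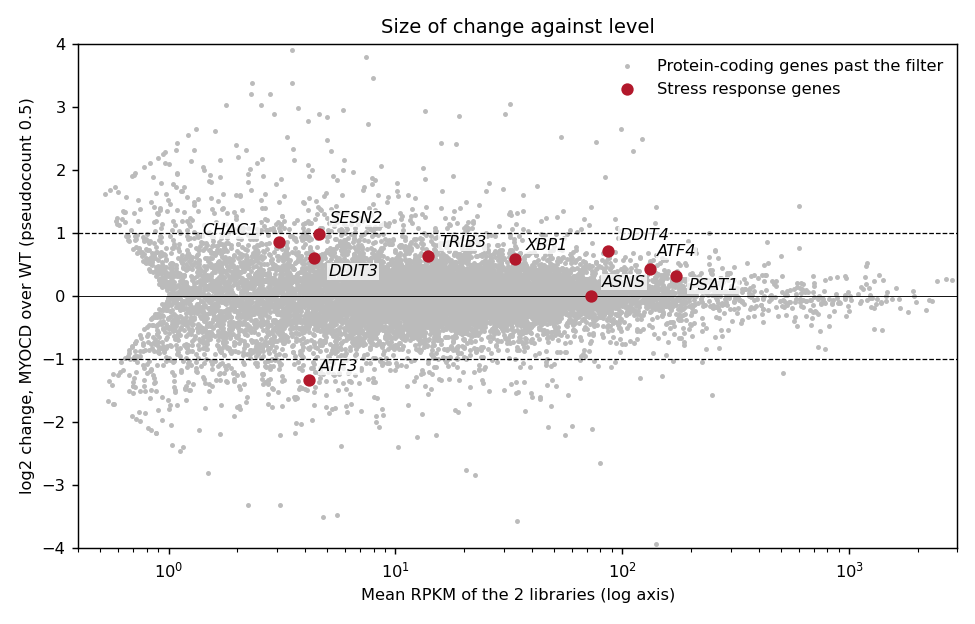
The log2 change of MYOCD over WT against the mean RPKM of the 2 libraries, for 12337 protein-coding genes past the filter in grey (21 lie outside the plotted range) and the 10 stress response genes in red, with dashed lines at 2-fold. Apart from ATF3 at -1.33, the red points lie between 0.01 (ASNS) and 0.99 (SESN2).

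The genes covered a wide range of abundance. In MYOCD cells the order, from high to low RPKM, was PSAT1, ATF4, DDIT4, ASNS, XBP1, TRIB3, SESN2, DDIT3, CHAC1 and ATF3. In WT cells it was PSAT1, ATF4, ASNS, DDIT4, XBP1, TRIB3, ATF3, DDIT3, SESN2 and CHAC1. Thus DDIT4 stood above ASNS in MYOCD cells and below it in WT cells, and ATF3 stood last in MYOCD cells. With no replicates, it is not known which neighbours in either order differ beyond the spread between cultures. Changes of this size were rarer among abundant genes: 1.5-fold or more higher were 12.9% of protein-coding genes with a mean of 1 to under 10 RPKM, 5.42% with 10 to under 50 RPKM and 3.46% with 50 RPKM or more. SESN2, DDIT3, CHAC1 and ATF3 belong to the lowest of these bands, TRIB3 and XBP1 to the middle band, and PSAT1, ATF4, DDIT4 and ASNS to the highest.

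ATF4, the central factor of the response, stood at 151 RPKM in MYOCD and 112 RPKM in WT. This is a ratio of 1.35 and a log2 change of 0.43, under 1.5-fold. ATF4 ranked 558th among the protein-coding genes past the filter in MYOCD and 782nd in WT. The gene spans bases 39519695 to 39522685 of chromosome 22 (GRCh38, plus strand). Since its protein is set largely by translation, these RNA levels do not measure ATF4 activity. Of 4 processed pseudogenes of ATF4 in the table, ATF4P3 had the highest value, 0.0673 RPKM in MYOCD and 0 in WT, so few reads were assigned to these copies.

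ATF3, an ATF4 target that encodes a bZIP factor known chiefly as a repressor, stood at 2.14 RPKM in MYOCD and 6.13 RPKM in WT. It was the 1 gene of the 10 that was lower, with a ratio of 0.349 and a log2 change of -1.33. Of the protein-coding genes past the filter, 1.51% had a lower log2 change. ATF4 was 70.8 times as abundant as ATF3 in MYOCD and 18.3 times in WT. ATF3 spans bases 212565334 to 212620777 of chromosome 1 (plus strand). It is also an immediate early gene of growth factor and stress signalling, and the values of other such genes are given below with its bZIP relatives.

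DDIT3, which encodes CHOP, a bZIP factor linked to cell death under lasting stress, stood at 5.36 RPKM in MYOCD and 3.36 RPKM in WT. The ratio was 1.60 and the log2 change 0.60. DDIT3 spans bases 57516588 to 57521737 of chromosome 12 (minus strand). Its value is uncertain, because 355 nt, or 27.2% of its exons, overlap exons of MARS on the opposite strand. MARS, the methionyl-tRNA synthetase gene, was far more abundant, at 336 RPKM in MYOCD and 260 RPKM in WT, a log2 change of 0.37. The library kit named in the labels does not mark strand, so reads from stretches shared with MARS and MBD6 cannot be told apart. How many of their reads were counted for DDIT3 is unknown. With a pseudocount of 1 RPKM the log2 change was 0.55, under 1.5-fold.

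TRIB3, a pseudokinase gene induced through ATF4 and CHOP that dampens ATF4 and AKT signalling, stood at 17.1 RPKM in MYOCD and 10.8 RPKM in WT. The log2 change was 0.64, and 7.27% of protein-coding genes had a higher one. CHAC1, which encodes an enzyme that degrades glutathione, stood at 4.08 RPKM in MYOCD and 2.02 RPKM in WT. The deposited values of CHAC1 differ by a ratio of 2.02, while its log2 change with the pseudocount was 0.86, short of the 2-fold mark, and 0.98 with a pseudocount of 0.1 RPKM. TRIB3 lies on chromosome 20 from 362835 to 397559 and CHAC1 on chromosome 15 from 40952962 to 40956519, both on the plus strand.

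The 2 genes of amino acid synthesis were among the most abundant and changed least. PSAT1, the phosphoserine aminotransferase of the serine pathway, stood at 191 RPKM in MYOCD and 153 RPKM in WT, a log2 change of 0.32. ASNS, the asparagine synthetase, stood at 73.2 RPKM in MYOCD and 72.8 RPKM in WT, a log2 change of 0.01, with 49.5% of protein-coding genes above it. PSAT1 spans bases 78297143 to 78330093 of chromosome 9 (plus strand), and ASNS on chromosome 7 from 97852118 to 97872542 on the minus strand. In the annotation, 44.6% of the exon bases of ASNS are shared with a processed transcript, AC079781.5, on the same strand. AC079781.5 has no value among those deposited, so whether reads were shared with it is unknown. The level of ASNS is uncertain where they were. Of 4 rows for ASNS pseudogenes and 4 for PSAT1 pseudogenes, the highest value was 0.105 RPKM (ASNSP6, in WT, with 0 in MYOCD).

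DDIT4 and SESN2 encode stress-induced inhibitors of the growth kinase complex TORC1. DDIT4 (REDD1) stood at 108 RPKM in MYOCD and 65.7 RPKM in WT, a log2 change of 0.71. In absolute terms this was the widest gap of the 10, 42.2 RPKM. DDIT4 spans bases 72273920 to 72276036 of chromosome 10 (plus strand), and an antisense gene, DDIT4-AS1, lies wholly within its exons on the opposite strand, over 847 nt or 41.2% of DDIT4. DDIT4-AS1 was listed at 125 RPKM in MYOCD and 75.2 RPKM in WT. Without strand, reads of these 2 genes cannot be told apart either. SESN2, the sestrin that also senses leucine, stood at 6.26 RPKM in MYOCD and 2.91 RPKM in WT. Its log2 change of 0.99 was the highest of the 10, with 3.09% of protein-coding genes above it, and the ratio of its deposited values was 2.15. With a pseudocount of 0.1 RPKM its log2 change was 1.08, past 2-fold. SESN2 spans bases 28259527 to 28282491 of chromosome 1 (plus strand).

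XBP1, the transcription factor gene of the IRE1 arm, stood at 40.4 RPKM in MYOCD and 26.7 RPKM in WT. The log2 change was 0.59, only just past 1.5-fold, and 0.58, under it, with 2 of 3 other scalings and with a pseudocount of 1 RPKM. XBP1 ranked 2589th in MYOCD and 3893rd in WT among the protein-coding genes past the filter. It spans bases 28794555 to 28800597 of chromosome 22 (minus strand), and its processed pseudogene XBP1P1 was listed at 0.884 RPKM in MYOCD and 0.885 RPKM in WT. RPKM of a gene adds up all its transcripts, so the table does not say how much XBP1 mRNA was in the spliced, active form. The stretch removed by IRE1 is 26 nt of coding exon 4, at chr22:28796127-28796152 (GRCh38, minus strand). It is present in 4 of the 7 GENCODE transcripts of XBP1 and precisely spliced out of 2 of them. It is shown in capitals, between 30 bases on each side, because the active and inactive forms differ by it and the deposited values cannot separate them.
XBP1 spliced stretch: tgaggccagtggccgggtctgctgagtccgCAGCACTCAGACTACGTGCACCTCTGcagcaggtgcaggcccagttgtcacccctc

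The promoters of the 10 genes were searched for the elements through which the stress factors and MYOCD are known to act. RefSeq (GRCh38.p14) gave 17 windows of 250 bases before to 50 after a start site for the 10 genes. Each motif was searched on both strands, and a gene counted when any of its windows held it. The 27305 genes of the background had 35116 windows, fewer per gene on average than the 10, so the 10 had more chances of a match. A site outside the windows, or with letters other than those searched, would be missed, so no match does not mean no element. The C/EBP-ATF response element, bound by ATF4 with a C/EBP partner and searched as TGATGNAA, was found for 3 of 10, ASNS, ATF3 and CHAC1, while it was held by 4.46% of all 27305 genes and by 2.62% of the 9972 of them past the filter of 1 RPKM, which all 10 genes passed. Further shares are given for all genes and then for genes past the filter. The endoplasmic reticulum stress element, CCAAT and CCACG with 9 bases between them, bound by NF-Y with ATF6 or XBP1, was found for XBP1 alone, and for 0.0916% and 0.16% of genes. The full cAMP response element TGACGTCA (2.25% and 3.81%), the XBP1 element TGACGTGG (0.927% and 1.18%) and the CArG box of SRF (1.6% and 1.44%) were found for 0 of the 10. The core TGACG, which is part of those 2 elements, was found for ASNS, ATF4 and XBP1, or 3 of 10 (28.4% and 40.4%), a share below that of genes past the filter. The NF-Y box CCAAT, which is part of the stress element, was found for 7 of 10 (39.7% and 43.2%). The genes with the C/EBP-ATF element were ASNS, which was level, CHAC1, which was higher, and ATF3, which was lower in MYOCD. The 10 were chosen as stress response genes, so these shares describe them and are not independent support. A link between these elements and the changes was not tested.

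The 4 stretches below are shown because they hold the stress elements found, with the match in capitals and up to 40 bases on each side, on the strand of the gene. They lie at chr7:97872429-97872516 (minus strand, ASNS, match at bases -68 to -61 from the start site), chr15:40953222-40953309 (plus strand, CHAC1, -209 to -202, reverse complement of the motif), chr1:212565176-212565263 (plus strand, ATF3, -191 to -184, upstream start site) and chr22:28800570-28800661 (minus strand, XBP1, -52 to -34).
ASNS: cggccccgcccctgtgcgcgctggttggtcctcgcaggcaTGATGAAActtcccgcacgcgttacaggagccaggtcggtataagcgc
CHAC1: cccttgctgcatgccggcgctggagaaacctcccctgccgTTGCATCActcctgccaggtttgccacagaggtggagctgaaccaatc
ATF3: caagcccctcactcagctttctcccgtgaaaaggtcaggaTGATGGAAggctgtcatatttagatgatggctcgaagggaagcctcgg
XBP1: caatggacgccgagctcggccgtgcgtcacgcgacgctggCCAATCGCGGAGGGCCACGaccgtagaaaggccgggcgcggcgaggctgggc

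**Figure D3:**
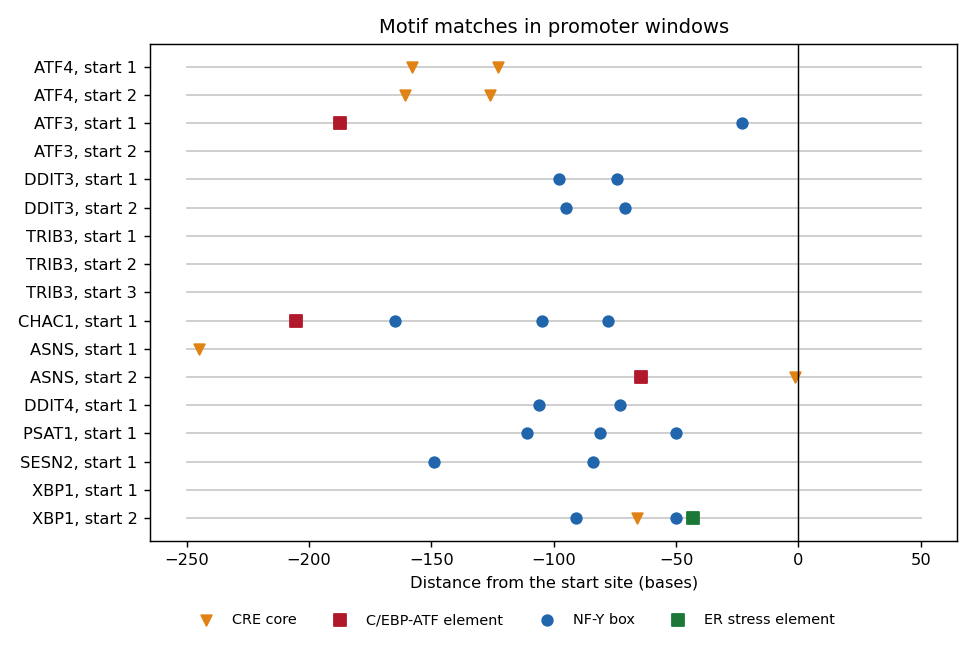
Positions of motif matches in the 17 promoter windows, by distance in bases from the start site (vertical line). Squares mark the C/EBP-ATF element in ASNS, CHAC1 and ATF3 and the endoplasmic reticulum (ER) stress element in XBP1, triangles the CRE core and circles the NF-Y box; TRIB3 has no match in its 3 windows.

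The wider pathway was described with 12 lists of 162 genes, of which 5 genes stand in 2 lists. The list median was above 0 for 8 of the 12 lists. As background, 49.8% of all genes and 50.5% of protein-coding genes were above 0. Of all genes 11.6%, and of protein-coding genes 8.52%, were 1.5-fold or more higher, and 13.2% of all genes were lower by that size. The counts past that size are given list by list below. The amino acid transporter genes were the 1 list with every member above 0.

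Of the upstream genes (eIF2 kinases, eIF2, its exchange factor and the phosphatase subunits), 9 of 17 were above 0, with a median log2 change of 0.01. At 1.5-fold or more, 0 were higher and 2 lower. The lower ones were PPP1R15A, which encodes GADD34, the stress-induced subunit that lets the phosphatase reverse the switch (6.35 RPKM in MYOCD, 11.1 in WT), and OMA1, a mitochondrial protease gene that starts the signal to the kinase HRI (9.28 and 14.2). PPP1R15A is itself an ATF4 target and so went against DDIT3, TRIB3 and CHAC1. Among the kinases, EIF2AK3 (PERK) stood at 7.22 RPKM in MYOCD and 8.90 RPKM in WT, EIF2AK4 (GCN2) at 13.8 and 11.8, EIF2AK2 (PKR) at 38.8 and 36.8, and EIF2AK1 (HRI) at 97.6 and 105. None of the 4 passed 1.5-fold. The eIF2 subunit genes EIF2S3 (276 RPKM in MYOCD, 208 in WT) and EIF2S1 (178 and 153) were also under that size.

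Of 21 bZIP relatives and partners of ATF4, 9 were above 0, with a median of -0.09. At 1.5-fold or more, 3 were higher and 3 lower. The AP-1 genes FOSL2 (58.6 RPKM in MYOCD, 30.3 in WT), JUNB (43.0 and 23.5) and FOSB (1.19 and 0.446) were higher. FOS was lower, at 1.02 RPKM in MYOCD and 4.67 RPKM in WT, a log2 change of -1.77. FOS, JUNB and FOSB are immediate early genes like ATF3, and they went in both directions. The C/EBP genes CEBPA (2.30 RPKM in MYOCD, 4.17 in WT) and CEBPD (11.2 and 17.2) were lower, while CEBPB (72.2 and 62.1) and NFE2L1 (96.2 and 103), a bZIP factor gene of the proteasome response, were under 1.5-fold. ATF5, the closest relative of ATF4 in the list, stood at 18.9 RPKM in MYOCD and 28.3 RPKM in WT, a log2 change of -0.57, also under that size.

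Of 11 genes of amino acid synthesis and folate-linked metabolism driven by ATF4, 8 were above 0, with a median log2 change of 0.25. At 1.5-fold or more, 3 were higher and 1 lower. The higher ones were ALDH1L2 (4.71 RPKM in MYOCD, 2.70 in WT), a mitochondrial folate enzyme gene, PSPH (39.2 and 24.3), the next step after PSAT1 in serine synthesis, and PYCR1 (54.0 and 35.3), a proline synthesis gene. CTH, which encodes the enzyme that makes cysteine from cystathionine, was lower, with 2.16 RPKM in MYOCD and 5.38 RPKM in WT. The abundant folate enzyme gene MTHFD2 stood at 192 and 174 RPKM in MYOCD and WT, and SHMT2 at 71.0 and 59.4.

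All 9 amino acid transporter genes were above 0, with log2 changes from 0.02 to 0.69 and a median of 0.32. SLC6A9, a glycine transporter gene, was the 1 of them past 1.5-fold (6.13 RPKM in MYOCD, 3.62 in WT). SLC3A2, the common heavy chain of several transporters, stood at 561 RPKM in MYOCD and 449 RPKM in WT, and SLC7A5, its partner for large amino acids, at 591 and 576. The glutamine transporter gene SLC1A5 stood at 186 and 167 RPKM in MYOCD and WT.

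Among the cytoplasmic tRNA synthetase genes known as ATF4 targets, 11 of 12 were above 0, with a median of 0.17, and 0 passed 1.5-fold. Among the other cytoplasmic synthetase genes, 5 of 8 were above 0, with a median of 0.10, and again 0 passed. MARS, TARS (124 RPKM in MYOCD, 105 in WT) and IARS (145 and 158) were the most abundant of the first list, and KARS (92.8 and 82.0), RARS (89.0 and 83.8) and QARS (66.1 and 83.7) of the second. The difference between these 2 lists was not tested.

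Further genes known to respond downstream went in both directions: of 17 past the filter 11 were above 0, with a median of 0.22, or 0.11 without the filter. At 1.5-fold or more, 2 were higher and 3 lower. VLDLR, a lipoprotein receptor gene that ATF4 induces, stood at 11.8 RPKM in MYOCD and 5.71 RPKM in WT, and SESN3, a relative of SESN2, at 1.47 and 0.800. The lower genes were PPP1R15A, GDF15 (29.1 RPKM in MYOCD, 62.7 in WT), a stress cytokine gene, and NUPR1 (0.869 and 1.57), a small chromatin protein gene. The most abundant were NARS (117 and 86.9), XPOT (96.5 and 79.9), the tRNA exporter gene, and TNFRSF10B (79.6 and 68.0), a death receptor gene induced by CHOP.

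In the IRE1 and XBP1 arm 12 of 18 genes past the filter were above 0, with a median of 0.08, and SDF2L1, an endoplasmic reticulum chaperone cofactor gene, was the 1 past 1.5-fold (27.7 RPKM in MYOCD, 16.6 in WT). IRE1 itself (ERN1) stood at 4.64 RPKM in MYOCD and 5.19 RPKM in WT. DNAJB9, a widely used target of spliced XBP1, stood at 8.13 and 7.89 RPKM in MYOCD and WT. The abundant members were PDIA6 (195 and 199 RPKM), PDIA4 (123 and 108) and SSR3 (127 and 112). In the ATF6 arm with its chaperones 11 of 15 were above 0, with a median of 0.14, and CRELD2 alone passed 1.5-fold (16.5 RPKM in MYOCD, 10.5 in WT). HSPA5 (BiP), the master chaperone of the endoplasmic reticulum, stood at 166 RPKM in MYOCD and 159 RPKM in WT, CANX (calnexin) at 472 and 376, HSP90B1 at 422 and 336, and P4HB at 592 and 548.9. ATF6 stood at 7.99 RPKM in MYOCD and 9.22 RPKM in WT.

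Since DDIT4 and SESN2 restrain TORC1 and also answer to other signals, 3 further lists were read beside them. Of 17 TORC1 genes 8 were above 0 and 0 passed 1.5-fold, with a median of -0.00, which was 0.01 with the same total RPKM in each library. EIF4EBP1, a translation repressor gene and ATF4 target, stood at 76.9 RPKM in MYOCD and 57.2 RPKM in WT, AKT1S1 at 48.4 and 38.3, and RHEB, the activator of TORC1, at 80.8 and 111. Of 5 glucocorticoid response genes past the filter, a class that includes DDIT4, 2 were above 0, with a median of -0.50. PER1 (7.78 RPKM in MYOCD, 4.32 in WT) and TSC22D3 (6.03 and 3.78) stood higher, and NFKBIA (32.9 and 53.1) and FKBP5 (10.4 and 15.97) lower, each past 1.5-fold. KLF9 (1.08 and 1.74) was also lower, under that size with the pseudocount. Of 12 p53 target genes, a class that includes SESN2, 4 were above 0, with a median of -0.24, and GDF15 alone passed 1.5-fold. MDM2 stood at 169 RPKM in MYOCD and 232 RPKM in WT, CDKN1A at 70.8 and 81.6, and RRM2B at 47.0 and 60.1. FAS, among the 4 above 0, stood at 14.6 RPKM in MYOCD and 10.1 RPKM in WT. Whether the changes of DDIT4 and SESN2 are tied to any of these 3 lists was not tested.

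**Figure D4:**
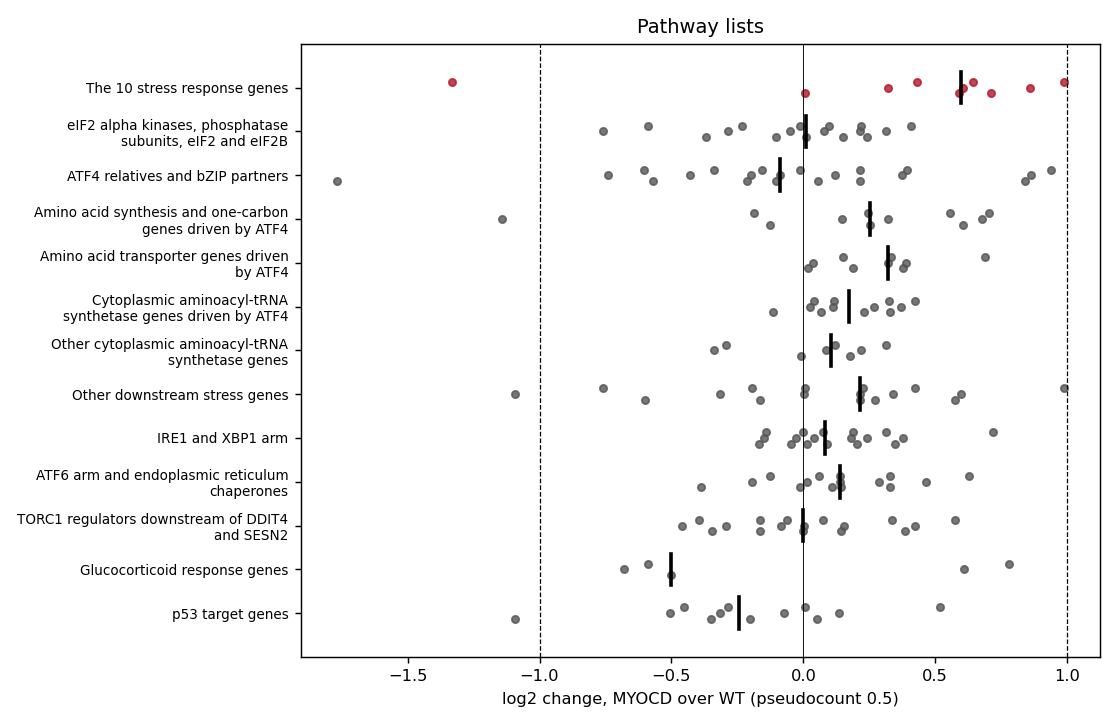
The log2 change of MYOCD over WT for each gene past the filter (points) and the median (bar) of the 10 stress response genes in red and of 12 pathway lists in grey, with dashed lines at 2-fold. The median of the 10 is 0.60, and list medians run from -0.50 (glucocorticoid response genes) to 0.32 (amino acid transporter genes).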

How the data were processed

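The authors deposited 1 table of RPKM values, with 1 column for each of the 2 libraries, and per the file headers the columns are WT and MYOCD overexpression. The WT column is named A549_rtt and the MYOCD column A549_M, and the key to them does not say what rtt stands for. Per the submitters' processing notes Bowtie 0.12.2 and the builds mm8 (mouse) and GRCh38.p12 were named, with no role. How reads were counted, with which annotation and whether by strand, was not given in the sources used here. Depth is unknown: among 2502 rows under 0.2 RPKM in each library the ratio of MYOCD to WT was most often near 1.14 (239 rows within a bin of 0.02) but spread around it, so whole reads were not recovered.

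A symbol on several rows (248 of 56255) used the row with the highest mean. The log2 change, with a pseudocount of 0.5 RPKM, was computed for all genes with at least 1 RPKM in a library, and 2-fold and 1.5-fold are rules of size, not tests. Gene positions and types came from GENCODE release 29 (GRCh38), which held 57375 of 57979 identifiers. Python 3.11.15, pandas 2.3.3, numpy 2.4.6 and matplotlib 3.10.9 were used.

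Named from each pathway list were its members at 1.5-fold or more (at most 4 in each direction) and its 3 most abundant. EIF2AK2, EIF2AK3, EIF2AK4, ATF5, ERN1, DNAJB9, HSPA5, ATF6, KLF9 and FAS were added after their values had been seen. The 10 genes and the lists were chosen with earlier results of these data known.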

Additional observations from a re-analysis of the deposited data

How the results depend on the processing

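The 9 alternative settings changed the pseudocount, the filter, the scaling or the handling of repeated symbols. Over them the median log2 change of the 10 genes stayed between 0.56 and 0.63, 8 or 9 genes were above 0 and 5 to 7 were at or beyond 1.5-fold. With a pseudocount of 0.1 RPKM SESN2 passed 2-fold (log2 change of 1.08), which made 2 genes at or beyond 2-fold. With a pseudocount of 1 RPKM DDIT3 and XBP1 fell under 1.5-fold, and XBP1 did so with the median of coding genes at 0 and with the same total RPKM without mitochondrial genes. No gene of the 10 changed its sign in any setting: ATF3 ran from -1.48 to -1.19 and ASNS from 0.00 to 0.02. With at least 5 RPKM CHAC1 was left out, and 960 of 11440 genes (8.39%) were at or beyond 2-fold, where 2042 of 17350 (11.8%) were in the setting reported. The 3 scalings moved all log2 changes by 0.01 or less. Of 135 list medians 4 changed sign: with at least 5 RPKM those of glucocorticoid genes (0.01), A549 markers (-0.17) and blood and endothelial markers (0.45), and with the same total RPKM that of TORC1 genes (0.01). Of the 135, 10 moved by over 0.1: those 3 with at least 5 RPKM, the fibroblast markers with it (2.06) and without a filter (0.07), and without a filter also the blood and endothelial markers (0.00) and the other downstream stress genes (0.11). The median of glucocorticoid genes also moved without a filter (-0.25) and with pseudocounts of 0.1 RPKM (-0.61) and 1 RPKM (-0.40). No paired analysis was possible because each group has 1 library, and for the same reason no replicate could be left out. Unknown depth limits most the genes with few RPKM, ATF3, CHAC1, SESN2 and DDIT3.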
